A study of Mus musculus with 12 samples.

Results

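The genes described here are 8 transcription factors of innate-like, effector and tissue-resident lymphocytes: Zbtb16, Tbx21, Eomes, Gm13060, Prdm1, Id2, Zeb2 and Bhlhe40. They were chosen by name from the 25899 gene symbols of a bulk RNA-seq count table of mouse small intestinal intraepithelial lymphocytes (IEL), the lymphocytes that sit between the epithelial cells of the gut. Gm13060 is the name the table gives to Hobit, which GENCODE M21 lists as Zfp683. All 8 were among the 12622 genes that passed the filter on low counts. Zbtb16, Eomes and Gm13060 had few or no reads in some groups and passed through the groups in which they were high.

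The 12 libraries formed 4 groups of 3. Every host was a Rag2-/- mouse, which makes no T or B cells of its own but keeps natural killer (NK) cells and other innate lymphoid cells. Donors were Themis wild-type mice, whose lymph node T cells were given by 1 intravenous injection of at least 2000000 cells, and gut cells were sorted 1 week later. In hosts of CD4+ T cells, the sort took TCRβ CD8αα+ cells (CD4-derived CD8αα) and TCRβ CD4+ cells (CD4 IEL). In hosts of CD8αβ+ T cells, it took TCRβ CD8αα+ cells (CD8αβ-derived CD8αα) and TCRβ CD8αβ+ cells (CD8αβ IEL). The labels call all the sorted cells intraepithelial T lymphocytes of genotype WT, and give neither the sex and age of the mice nor how many animals stand behind a library. The p-values therefore measure the spread between these libraries, which may be technical.

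Activated T cells that settle in a tissue switch between gene programmes that a small set of DNA-binding proteins sets up. PLZF, encoded by Zbtb16, directs innate-like T cells such as invariant NKT cells and is also expressed by innate lymphoid precursors. The T-box factors T-bet (Tbx21) and Eomes drive interferon-γ and cytotoxic genes, and Zeb2 acts downstream of T-bet in terminal effector and NK cell maturation. Hobit and Blimp-1 (Prdm1) hold mouse lymphocytes in tissues by repressing genes of egress, Bhlhe40 supports resident T cells and cytokine output, and Id2 blocks the E proteins that keep lymphocytes in early states.

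The promoters of the T-box pair are shown because T-bet and Eomes are close relatives whose levels parted in these cells. Those of Prdm1 and Zeb2 are shown because both genes differed between CD4 IEL and CD8αβ IEL. RefSeq listed promoters for 5 of the 8 genes. Each line gives the 250 bases before the start of transcription, read 5′ to 3′ on the strand of the gene, in the GRCm38.p6 build. Capitals mark the E-box CACCTG, a sequence bound by ZEB factors, on either strand. Tbx21 is read from chr11:97115332-97115581 on the minus strand, Eomes from chr9:118477939-118478188 on the plus strand, Prdm1 from chr10:44458749-44458998 on the minus strand and Zeb2, of which this is the outermost of 4 listed starts, from chr2:45117443-45117692 on the minus strand.
Tbx21: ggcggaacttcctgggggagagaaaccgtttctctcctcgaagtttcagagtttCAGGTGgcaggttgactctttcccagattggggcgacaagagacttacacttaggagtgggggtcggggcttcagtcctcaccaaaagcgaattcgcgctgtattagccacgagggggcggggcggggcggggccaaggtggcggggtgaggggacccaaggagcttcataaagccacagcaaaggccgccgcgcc
Eomes: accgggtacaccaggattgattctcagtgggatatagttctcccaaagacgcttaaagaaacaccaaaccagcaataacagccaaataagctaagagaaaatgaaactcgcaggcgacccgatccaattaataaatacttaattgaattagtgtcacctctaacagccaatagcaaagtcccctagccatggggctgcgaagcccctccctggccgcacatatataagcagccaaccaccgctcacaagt
Prdm1: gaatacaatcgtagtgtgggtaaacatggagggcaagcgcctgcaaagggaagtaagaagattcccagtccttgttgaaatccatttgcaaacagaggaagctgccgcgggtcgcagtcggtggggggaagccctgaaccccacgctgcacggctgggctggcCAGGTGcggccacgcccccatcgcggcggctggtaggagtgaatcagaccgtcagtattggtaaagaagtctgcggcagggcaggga
Zeb2: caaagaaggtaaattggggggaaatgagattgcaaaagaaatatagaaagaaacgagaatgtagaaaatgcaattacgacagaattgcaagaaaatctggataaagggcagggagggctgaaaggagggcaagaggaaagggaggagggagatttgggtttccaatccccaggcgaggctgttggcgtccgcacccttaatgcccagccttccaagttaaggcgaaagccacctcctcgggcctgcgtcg

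The Tbx21 window held 1 CACCTG match, 196 bases before the start, and the Prdm1 window held 1, 87 bases before it. Over the 27025 genes with a listed promoter, 17.1% of windows of this length held that E-box, so a match is common. The Prdm1 window also held 1 match to TGANTCA, an AP-1 motif found in 6.87% of promoters. Motifs were searched on both strands, and CACCTG is itself a case of the general E-box CANNTG, which 66.0% of promoters held. The T-box motif AGGTGT, in 12% of promoters, and the Blimp-1 core GAAAGT, in 12.3%, had no match in the 4 windows. At the other 3 listed starts of Zeb2, GAAAGT had 1 match, which lay 172 and 198 bases before 2 neighbouring starts, and TGANTCA had 2 matches before the remaining start. These are letters in a window, and no binding was measured.

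Library totals ran from 5618917 to 11068713 reads, so with 0 reads a gene may still have up to 0.271 to 0.534 counts per 1000000 reads (CPM), depending on the library. The coreceptor transcripts followed the gates: Cd8b1 averaged 17.4 ± 2.77 CPM in CD4-derived CD8αα, 5.05 ± 1.70 in CD4 IEL, 2.95 ± 0.470 in CD8αβ-derived CD8αα and 1123 ± 40.3 in CD8αβ IEL (SD, n = 3 each). Against the label of T lymphocyte, the CD8αα groups had low levels of most defining T cell markers. Cd3e, a core chain of the T cell receptor complex, averaged 8.23 ± 4.81 CPM in CD4-derived CD8αα and 557 ± 71.4 in CD4 IEL (SD, n = 3 each). In the CD8αβ progeny, Cd3e averaged 18.4 ± 4.03 CPM in CD8αβ-derived CD8αα and 493 ± 85.8 in CD8αβ IEL (SD, n = 3 each). Of 12 T cell markers tested, 11 were lower in CD4-derived CD8αα than in CD4 IEL and 10 were lower in CD8αβ-derived CD8αα than in CD8αβ IEL, with Cd3g the exception that was higher in both. With Cd3g included, the 12 markers summed to 3691 to 4143 CPM in CD4-derived CD8αα and 7850.4 to 8582 in CD4 IEL. They summed to 5286 to 5888 CPM in CD8αβ-derived CD8αα and 7031 to 8359.7 in CD8αβ IEL. Cd3g and Lck made up most of the sums in the CD8αα groups. Lck averaged 1732 ± 77.5 CPM in CD4-derived CD8αα and 2239 ± 189 in CD4 IEL (SD, n = 3 each). It averaged 1939.6 ± 66.1 CPM in CD8αβ-derived CD8αα and 2229 ± 273 in CD8αβ IEL (SD, n = 3 each). The groups labelled CD8αα are called by that label below. The names CD4-derived, CD8αβ-derived and progeny likewise follow the labels. Whether the cells of the CD8αα libraries descend from the transferred cells was not tested.

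Marker lists of other cells also differed in summed level between these groups. The summed level of 10 NK and innate lymphoid markers was 2839 to 3476 CPM in CD4-derived CD8αα and 162 to 261 in CD4 IEL. It was 3159 to 5541 CPM in CD8αβ-derived CD8αα and 216 to 345 in CD8αβ IEL. Fcer1g and Tyrobp, signalling adaptors of NK and myeloid receptors, made up most of the sums in the CD8αα groups. Ncr1, which encodes the NK receptor NKp46, stayed low, with 2.20 ± 2.14 CPM in CD4-derived CD8αα, 5.30 ± 1.65 in CD4 IEL and 1.06 ± 0.517 in CD8αβ-derived CD8αα (SD, n = 3 each), and no read in CD8αβ IEL. Klra8 and Klra4 had no read in CD4 IEL or CD8αβ IEL, and Klra4, Klra1 and Il1rl1 had none in CD8αβ-derived CD8αα. In CD4-derived CD8αα, Klra8 had 88 reads, Klra1 75 and Klra4 23, and Klra8 had 18 in CD8αβ-derived CD8αα. Klrb1c, also of this list, averaged 205 ± 40.3 CPM in CD4-derived CD8αα and 15.8 ± 5.05 in CD4 IEL. It averaged 332 ± 12.8 CPM in CD8αβ-derived CD8αα and 8.02 ± 1.24 in CD8αβ IEL (SD, n = 3 each). Of 9 tested, 5 rose and 1 fell by edgeR in each progeny.

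The 6 myeloid markers summed to 625 to 713 CPM in CD4-derived CD8αα and 81.0 to 132 in CD4 IEL, and to 709 to 776 in CD8αβ-derived CD8αα and 170.1 to 230.2 in CD8αβ IEL. Itgam, Fcgr3 and Cst3 carried that difference: of 6 tested, 3 rose and 0 fell in CD4-derived CD8αα over CD4 IEL by edgeR, and 3 rose and 3 fell in CD8αβ-derived CD8αα over CD8αβ IEL, with a median log2 fold change of -0.09. The 8 epithelial markers summed to 367 to 529 CPM in CD4-derived CD8αα and 20.2 to 72.6 in CD4 IEL, and to 335 to 535 in CD8αβ-derived CD8αα and 97.0 to 306 in CD8αβ IEL. Epcam and Cdh17 were the 2 of 7 tested that rose in each comparison and 0 fell by edgeR, and the list's median log2 fold change was 1.03 over CD4 IEL and -0.18 over CD8αβ IEL. The 3 γδ T cell markers in the table stayed at or below 0.687 CPM in CD4-derived CD8αα and 17.7 in CD4 IEL, and at or below 1.70 in CD8αβ-derived CD8αα and 25.2 in CD8αβ IEL. The 5 B and plasma cell markers summed to 140.2 to 301 CPM in all groups, nearly all of it Xbp1.

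Sex-linked transcripts also differed between libraries. Xist, the transcript of the inactive X chromosome, stood at 373 to 645 CPM in 4 of the 6 CD8αα libraries, replicates 1 and 2 from CD4 and replicates 1 and 3 from CD8αβ, where the 4 Y-linked genes summed to 0.341 to 1.03 CPM. In the other 8 libraries, the Y-linked sum was 233 to 449 CPM and Xist 0 to 36.4 CPM. For the 8 factors and the named list genes, results below are given without these 4 libraries where a call is lost. Leaving them out keeps 1 library in each CD8αα group, assumed to vary like the others. Counts of list genes called use all 12 libraries unless stated, and in the CD8αα comparisons most were lower without these 4. The part of these cell markers and of sex in the results on the 8 factors was not tested.

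**Figure D1:**
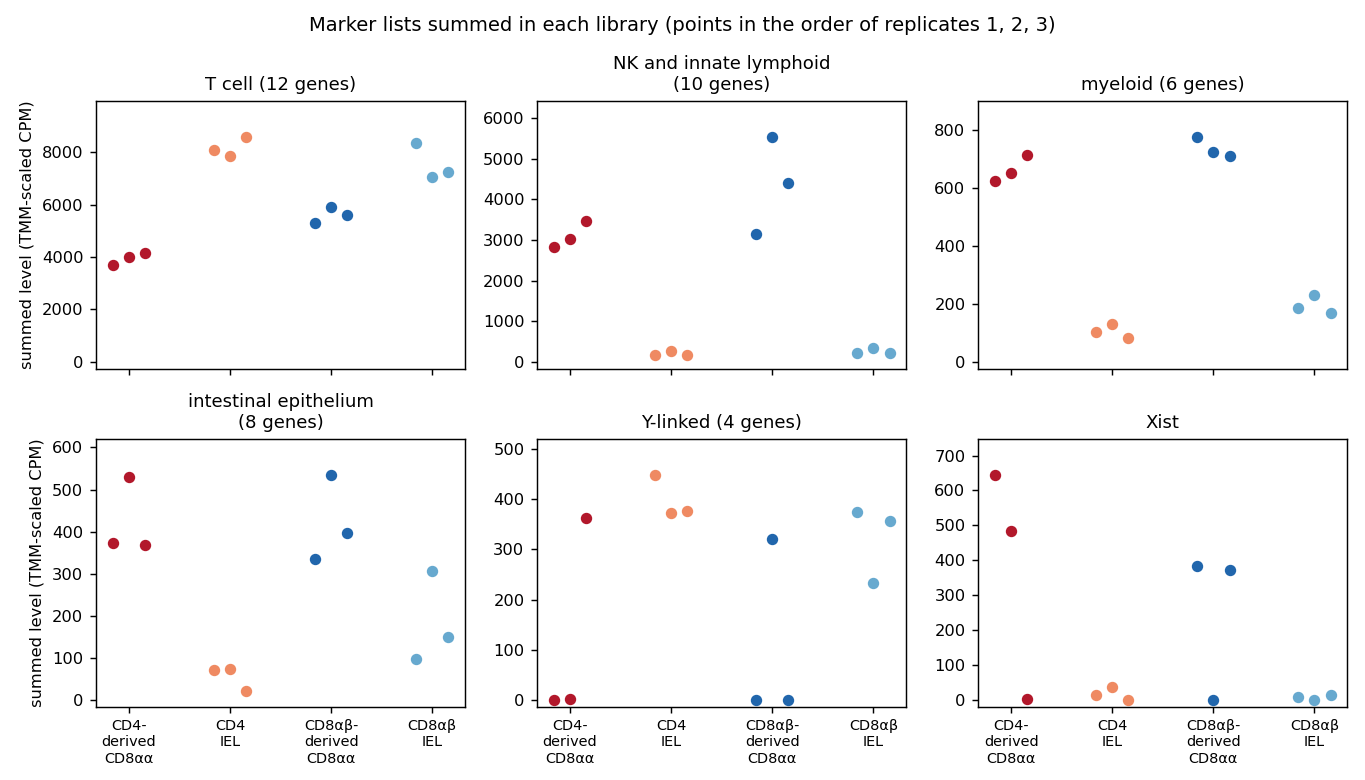
Summed level of each marker list in TMM-scaled CPM (vertical axis), with 1 point per library and the 4 groups along the horizontal axis. NK and innate lymphoid markers lie at 2839 CPM or above in the CD8αα libraries and at 345 CPM or below in the others, and 4 CD8αα libraries have Xist in place of Y-linked transcripts.

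Zbtb16 was the factor that rose with the CD8αα label, in both progenies. Zbtb16 (chr9:48654311-48835945, minus strand, mm10) had 26.8, 21.8 and 18.7 CPM in the CD4-derived CD8αα libraries, against 0, 0.261 and 0.898 CPM in CD4 IEL. It had 22.1, 25.3 and 21.8 CPM in CD8αβ-derived CD8αα, against 0, 0.106 and 1.15 CPM in CD8αβ IEL. All 6 CD8αα libraries lay far above all 6 others, and the 2 CD8αα groups overlapped.

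The CD4 IEL and CD8αβ IEL values of Zbtb16 rest on 8 reads in each group of 3 libraries. The fitted log2 fold change was 5.94 ± 0.77 in CD4-derived CD8αα over CD4 IEL (SE, edgeR's quasi-likelihood test, Benjamini-Hochberg adjusted p = 6.56e-05). In CD8αβ-derived CD8αα over CD8αβ IEL it was 5.92 ± 0.77 (adjusted p = 5.61e-05). Between CD4-derived CD8αα and CD8αβ-derived CD8αα, the difference was -0.04 on the log2 scale with a 95% interval of -1.20 to 1.12 (adjusted p = 0.985). In bulk libraries such as these, fewer cells of a type and less RNA per cell cannot be told apart, and the NK and innate lymphoid marker sums moved with Zbtb16. The fitted values rest on few reads in the lower groups: they were 7.37 without CD4 IEL replicate 3 and 8.22 without CD8αβ IEL replicate 3, and passed the test in both cases (adjusted p = 1.19e-04 and 2.19e-05, edgeR).

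**Figure D2:**
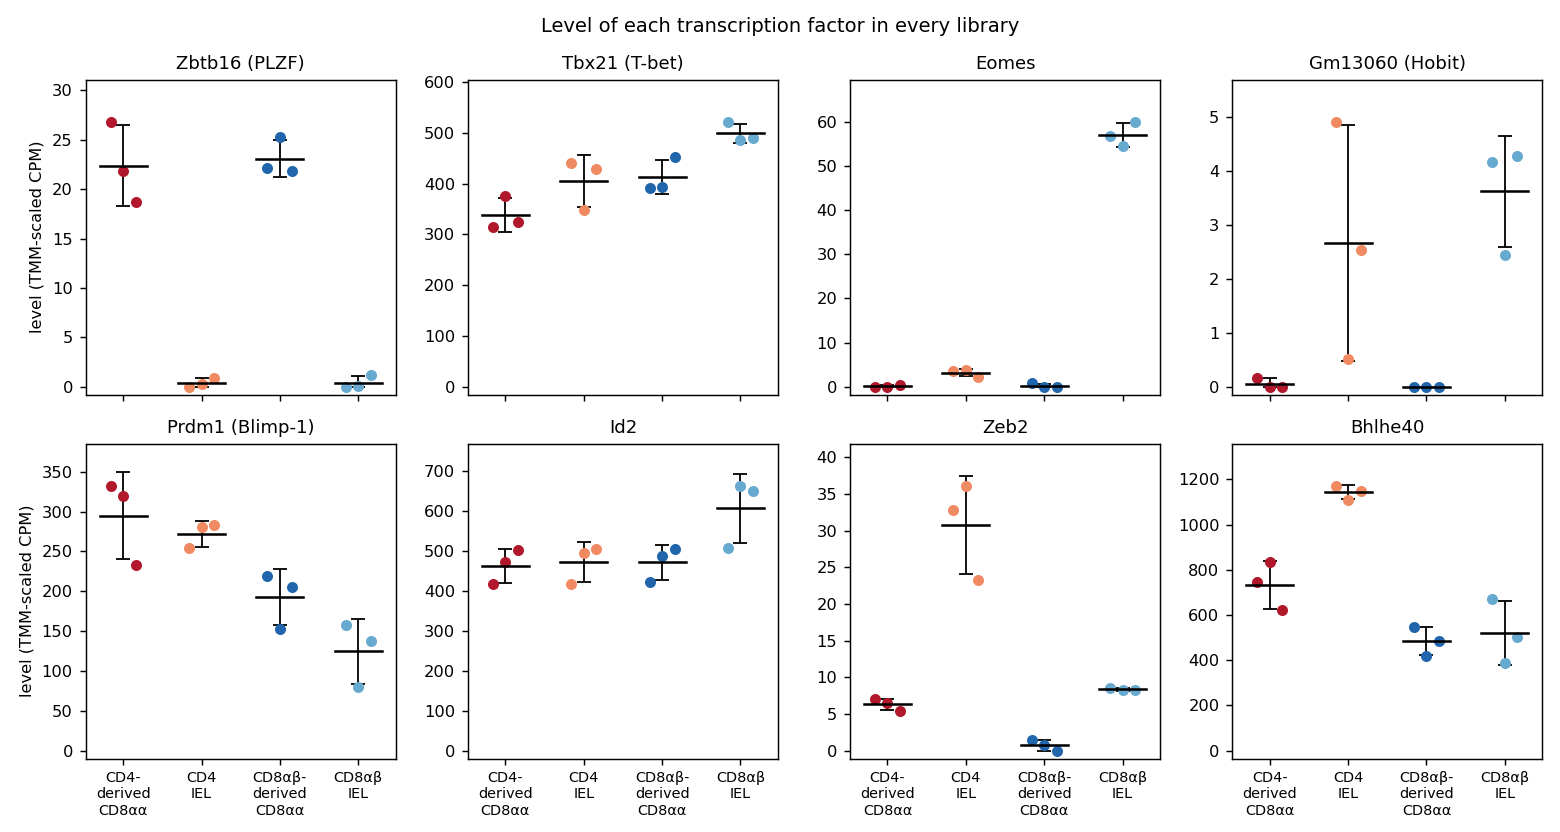
Level of each factor in TMM-scaled CPM (vertical axis, starting at 0 and scaled per gene) in the 12 libraries, with 1 point per library, the mean as a line and the SD as whiskers stopping at 0. Zbtb16 is high in the 6 CD8αα libraries, Eomes in the 3 CD8αβ IEL libraries and Zeb2 and Bhlhe40 in the 3 CD4 IEL libraries.

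The T-box pair split. Tbx21 was abundant in every library, while Eomes was close to absent from both CD8αα groups and reached a clear level in CD8αβ IEL. Tbx21 (chr11:97098071-97115331, minus strand) had 315, 376 and 324 CPM in CD4-derived CD8αα and 441, 347 and 428 CPM in CD4 IEL. It had 392, 394 and 452 CPM in CD8αβ-derived CD8αα and 521, 486 and 489 CPM in CD8αβ IEL. The groups overlapped in the CD4 progeny, and the CD8αα libraries lay below the CD8αβ IEL libraries in the other.

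Neither of these differences of Tbx21 passed the test. The log2 fold change was -0.26 ± 0.13 in CD4-derived CD8αα over CD4 IEL (SE, edgeR, adjusted p = 0.147) and -0.27 ± 0.13 in CD8αβ-derived CD8αα over CD8αβ IEL (adjusted p = 0.122), with 95% intervals of -0.53 to 0.01 and -0.55 to 0.00. Both passed narrowly when library totals alone set the scale, with adjusted p of 0.0414 and 0.0472 by the same test. From high to low, the group means of Tbx21 were 499 ± 19.0 CPM in CD8αβ IEL, 413 ± 33.7 in CD8αβ-derived CD8αα, 405 ± 51.0 in CD4 IEL and 338 ± 33.1 in CD4-derived CD8αα (SD, n = 3 each). No 2 neighbours in that order differed by the test, but its ends did, with a log2 fold change of -0.56 ± 0.13 in CD4-derived CD8αα over CD8αβ IEL (SE, edgeR, adjusted p = 0.00334). That call was lost without the 4 libraries with Xist, at -0.62 (adjusted p = 0.101).

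Eomes (chr9:118478212-118486132, plus strand) had 0, 0 and 0.468 CPM in CD4-derived CD8αα, which is 3 reads in all, against 3.49, 3.78 and 2.24 CPM in CD4 IEL. It had 0.747, 0 and 0 CPM in CD8αβ-derived CD8αα, which is 8 reads in 1 library, against 56.8, 54.4 and 59.9 CPM in CD8αβ IEL. The CD8αα and companion libraries did not overlap in either progeny, and CD8αβ IEL stood far above the other groups.

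All 3 reads of Eomes in CD4-derived CD8αα came from replicate 3 and all 8 in CD8αβ-derived CD8αα from replicate 1, and without those libraries these groups had none. By the ratio of scaled reads, Eomes was 22.6-fold lower in CD4-derived CD8αα than in CD4 IEL, with an exact 95% counting interval of 7.45 to 112. The log2 fold change fitted by edgeR passed the test there (adjusted p = 0.00292). In CD8αβ-derived CD8αα over CD8αβ IEL, the fitted log2 fold change was -7.63 ± 0.74 (SE, adjusted p = 3.56e-06). CD4 IEL, at 3.17 ± 0.816 CPM, lay below CD8αβ IEL, at 57.0 ± 2.73 CPM (SD, n = 3 each), by a log2 fold change of -4.15 ± 0.57 (SE, edgeR, adjusted p = 2.52e-04). The CD8αα groups held 3 and 8 reads in all, and their difference was not detectable at this depth (ratio 1.94 lower in CD4-derived CD8αα, interval 0.466 to 11.4, edgeR, adjusted p = 0.784).

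Set per kilobase of exon, so that the 2 genes can be compared, Eomes was 0, 0 and 0.0865% of the Tbx21 level in the CD4-derived CD8αα libraries and 0.474, 0.653 and 0.314% in CD4 IEL. It was 0.114, 0 and 0% of the Tbx21 level in CD8αβ-derived CD8αα and 6.53, 6.70 and 7.33% in CD8αβ IEL. T-bet transcripts outnumbered those of Eomes in all 12 libraries.

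**Figure D3:**
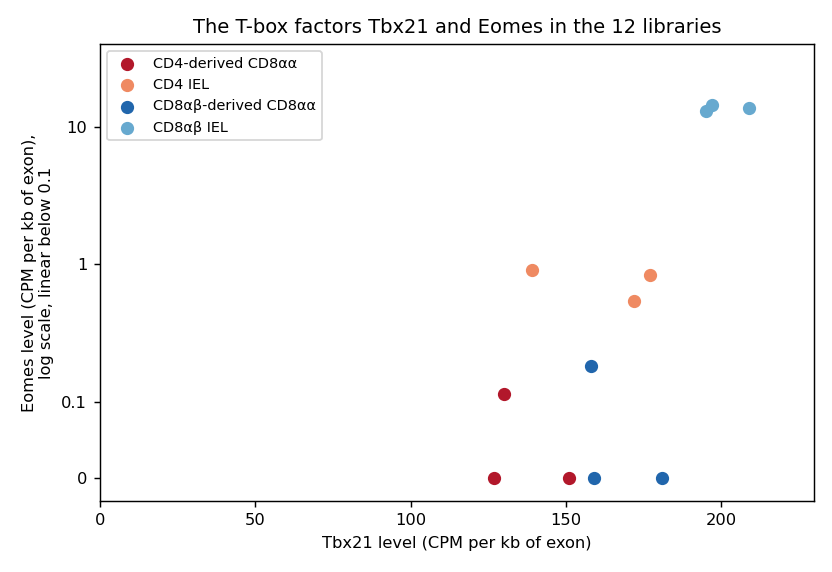
Eomes level (vertical axis, CPM per kb of exon, log scale that is linear below 0.1) against Tbx21 level (horizontal axis, CPM per kb of exon), with 1 point per library. Tbx21 means run from 136 in CD4-derived CD8αα to 200.5 in CD8αβ IEL, while Eomes means run from 0.0375 to 13.7 between the same groups.

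Zeb2 fell with the CD8αα label in both progenies and also differed by origin within each label. Zeb2 (chr2:44983634-45117395, minus strand), a repressor that binds E-boxes, had 7.0, 6.53 and 5.46 CPM in CD4-derived CD8αα, against 32.8, 36.1 and 23.3 CPM in CD4 IEL. It had 1.49, 0.744 and 0 CPM in CD8αβ-derived CD8αα, against 8.59, 8.34 and 8.23 CPM in CD8αβ IEL. In each pair no library overlapped, and CD8αβ-derived CD8αα was the lowest group with 23 reads in all.

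The log2 fold change of Zeb2 was -2.28 ± 0.49 in CD4-derived CD8αα over CD4 IEL (SE, edgeR, adjusted p = 0.00334) and -3.41 ± 0.57 in CD8αβ-derived CD8αα over CD8αβ IEL (adjusted p = 4.64e-04). By origin, it was 3.01 ± 0.58 in CD4-derived CD8αα over CD8αβ-derived CD8αα (SE, edgeR, adjusted p = 0.0122) and 1.87 ± 0.48 in CD4 IEL over CD8αβ IEL (adjusted p = 0.0110). The call between the CD8αα groups was lost without CD8αβ-derived CD8αα replicate 2, at 2.98 (adjusted p = 0.0538), and without the 4 libraries with Xist, at 2.85 (adjusted p = 0.273). Without CD8αβ-derived CD8αα replicate 1, Zeb2 was at -4.40 over CD8αβ IEL (adjusted p = 2.82e-04) and at 3.99 between the CD8αα groups (adjusted p = 0.00526), by the same test. In the order of means, CD4-derived CD8αα, at 6.33 ± 0.788 CPM, and CD8αβ IEL, at 8.38 ± 0.185 CPM (SD, n = 3 each), were neighbours that did not differ by the test, with a 95% interval of -1.46 to 0.64 on the log2 scale. Zeb2os, an antisense gene that shares 653 exon bases with Zeb2, had 15 reads over the 12 libraries.

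Of Hobit and Blimp-1, the paired repressors of the residency programme, Hobit fell with the CD8αα label in both progenies and Blimp-1 did not pass that test. Gm13060 (Hobit, chr4:134053838-134058996, plus strand) was scarce everywhere, with 0.171, 0 and 0 CPM in CD4-derived CD8αα, which is 1 read, against 4.90, 0.522 and 2.54 CPM in CD4 IEL. It had no read in the 3 CD8αβ-derived CD8αα libraries, against 4.16, 2.43 and 4.28 CPM in CD8αβ IEL. The CD4 IEL values spread widely, but none overlapped the CD8αα libraries.

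Gm13060 was 58.9-fold lower in CD4-derived CD8αα than in CD4 IEL by the ratio of 1 to 66 reads, with an exact 95% counting interval of 10.2 to 2362 (edgeR, adjusted p = 0.00833). Of the 66 reads, 45 came from CD4 IEL replicate 1, without which the ratio was 30.7, and it was 34.4 without CD4-derived CD8αα replicate 2. The 1 read came from CD4-derived CD8αα replicate 1, without which Gm13060 was at least 14.2-fold lower. It was at least 33.3-fold lower in CD8αβ-derived CD8αα than in CD8αβ IEL, set against 3 counts over the group (edgeR, adjusted p = 0.00151). The call against CD4 IEL held without any single library (adjusted p up to 0.0423). Both calls were lost without the 4 libraries with Xist, with adjusted p of 0.108 and 0.0696 by the same test. CD4 IEL and CD8αβ IEL did not differ by the test, with a 95% interval of -2.32 to 1.45 on the log2 scale (adjusted p = 0.746).

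Prdm1 (chr10:44437177-44528501, minus strand) was well expressed in all groups and was higher in CD4 IEL than in CD8αβ IEL. It had 332, 319 and 233 CPM in CD4-derived CD8αα and 254, 281 and 283 CPM in CD4 IEL, which overlapped. It had 219.7, 153 and 205 CPM in CD8αβ-derived CD8αα and 158, 79.8 and 138 CPM in CD8αβ IEL, which overlapped as well. Libraries of CD4 origin lay above those of CD8αβ origin within each label, with no overlap.

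The log2 fold change of Prdm1 was 1.12 ± 0.23 in CD4 IEL over CD8αβ IEL (SE, edgeR, adjusted p = 0.00311). It was 0.61 ± 0.23 in CD4-derived CD8αα over CD8αβ-derived CD8αα, which did not pass (adjusted p = 0.152, 95% interval 0.13 to 1.10). With the CD8αα label it was 0.11 ± 0.22 over CD4 IEL (adjusted p = 0.749) and 0.62 ± 0.23 over CD8αβ IEL (adjusted p = 0.0515). The value over CD8αβ IEL passed narrowly with the replicate number as a block (edgeR, adjusted p = 0.0410). In order the means were 295 ± 54.0 CPM in CD4-derived CD8αα, 272 ± 16.3 in CD4 IEL, 193 ± 35.3 in CD8αβ-derived CD8αα and 125 ± 40.7 in CD8αβ IEL (SD, n = 3 each), and no 2 neighbours differed by the test.

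Bhlhe40 was highest in CD4 IEL and lower in CD4-derived CD8αα. Bhlhe40 (chr6:108660629-108666925, plus strand) had 744, 835 and 624 CPM in CD4-derived CD8αα, against 1170.4, 1109 and 1148 CPM in CD4 IEL. It had 548, 421 and 487 CPM in CD8αβ-derived CD8αα and 671, 388 and 501 CPM in CD8αβ IEL. CD4 IEL stood above every other library, and the 2 groups of the CD8αβ progeny overlapped.

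The log2 fold change of Bhlhe40 was -0.64 ± 0.18 in CD4-derived CD8αα over CD4 IEL (SE, edgeR, adjusted p = 0.0162) and -0.10 ± 0.18 in CD8αβ-derived CD8αα over CD8αβ IEL (adjusted p = 0.721). By origin it was 1.13 ± 0.18 in CD4 IEL over CD8αβ IEL (SE, edgeR, adjusted p = 6.34e-04) and 0.60 ± 0.18 in CD4-derived CD8αα over CD8αβ-derived CD8αα (adjusted p = 0.0794). The call within the CD4 progeny was lost without CD4-derived CD8αα replicate 3, at -0.53 (adjusted p = 0.0790), and without the 4 libraries with Xist, at -0.87 (adjusted p = 0.0981). An antisense gene, 0610040F04Rik, shares 118 exon bases with Bhlhe40 and had 2648 reads, and counting by strand is not given in the sources used here.

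Id2 varied least. Id2 (chr12:25093801-25096092, minus strand), an inhibitor of E proteins that innate lymphoid cells and effector CD8 T cells need, had 418, 471 and 502 CPM in CD4-derived CD8αα and 416, 495 and 505 CPM in CD4 IEL. It had 422, 488 and 504 CPM in CD8αβ-derived CD8αα, against 507, 662 and 649.7 CPM in CD8αβ IEL. The first 3 groups lay on top of each other, and the lowest CD8αβ IEL library lay just above all of them.

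The log2 fold change of Id2 was -0.03 ± 0.14 in CD4-derived CD8αα over CD4 IEL (SE, edgeR, adjusted p = 0.913, 95% interval -0.32 to 0.27) and -0.36 ± 0.14 in CD8αβ-derived CD8αα over CD8αβ IEL (adjusted p = 0.0611). CD4-derived CD8αα and CD8αβ-derived CD8αα differed by -0.02, with a 95% interval of -0.32 to 0.27. Id2 passed the test in CD4-derived CD8αα over CD8αβ IEL, at -0.39 ± 0.14 (SE, edgeR, adjusted p = 0.0392), a call that was lost without the 4 libraries with Xist, at -0.27 (adjusted p = 0.50). It was also lost when library totals alone set the scale, with the 2 groups alone, and without CD4-derived CD8αα replicate 1 or 2, CD8αβ-derived CD8αα replicate 2 or 3, or CD8αβ IEL replicate 2 or 3.

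Counted by comparison, 5 of the 8 factors passed the test in CD4-derived CD8αα over CD4 IEL, 1 higher and 4 lower, beside 28.5% of all genes tested (15% higher and 13.5% lower). In CD8αβ-derived CD8αα over CD8αβ IEL, 4 passed, 1 higher and 3 lower, beside 31.2% of all genes (16.1% higher and 15.1% lower). Between CD4-derived CD8αα and CD8αβ-derived CD8αα, Zeb2 was the 1 that passed, higher, beside 4.33% of all genes (1.87% higher and 2.46% lower). In CD4 IEL over CD8αβ IEL, 4 passed, with Eomes lower and Prdm1, Zeb2 and Bhlhe40 higher, beside 29.0% of all genes (12.9% higher and 16% lower). Libraries of the groups did not overlap for 5, 6, 4 and 6 of the 8 in these comparisons, beside 45.7%, 43.8%, 28.9% and 41.5% of all genes. Across both origin and label, 7 passed in CD4-derived CD8αα over CD8αβ IEL, 3 higher and 4 lower, beside 39.7% of all genes (19.3% higher and 20.4% lower). Among the 7, Bhlhe40 was no longer called with the 2 groups alone or without CD4-derived CD8αα replicate 1 or 2, CD4 IEL replicate 1 or 2, CD8αβ-derived CD8αα replicate 3, or CD8αβ IEL replicate 2 or 3. Without the 4 libraries with Xist, only Eomes and Zbtb16 of the 7 were called. In CD8αβ-derived CD8αα over CD4 IEL, 5 passed, 1 higher and 4 lower, beside 38.7% (20.9% higher and 17.8% lower), and Gm13060 lost its call there without the 4 libraries with Xist (edgeR, adjusted p = 0.0576). Libraries did not overlap for 7 and 6 of the 8 in these last comparisons, beside 50.6% and 53.4% of all genes. As the 3 scarce factors entered the test through the groups in which they were high, these counts are a description.

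Without the 4 libraries with Xist, 3 of the 8 passed in CD4-derived CD8αα over CD4 IEL, and 0 between the CD8αα groups. Zbtb16 was then at 5.64 (edgeR, adjusted p = 0.0257) over CD4 IEL and 6.0 over CD8αβ IEL (adjusted p = 0.0183). Eomes was at -2.73 over CD4 IEL (edgeR, adjusted p = 0.0197) and passed over CD8αβ IEL with no read left in the CD8αα library (adjusted p = 6.37e-05). Zeb2 was at -2.49 over CD4 IEL (edgeR, adjusted p = 0.00972) and -3.46 over CD8αβ IEL (adjusted p = 0.00379).

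Whether the change with the CD8αα label differed between the progenies was tested as an interaction. It passed for 0 of the 8 by edgeR, beside 2.56% of all genes (1.20% higher and 1.35% lower), with 0 at an unadjusted p under 0.05, and for 0 by DESeq2, with 1 at an unadjusted p under 0.05. The smallest unadjusted p by edgeR was 0.0526, for Bhlhe40, whose interaction was -0.54 with a 95% interval of -1.08 to 0.01. For Eomes the interaction was 3.31 with an interval of -0.49 to 7.10, so the data do not show that the change was equal.

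**Figure D4:**
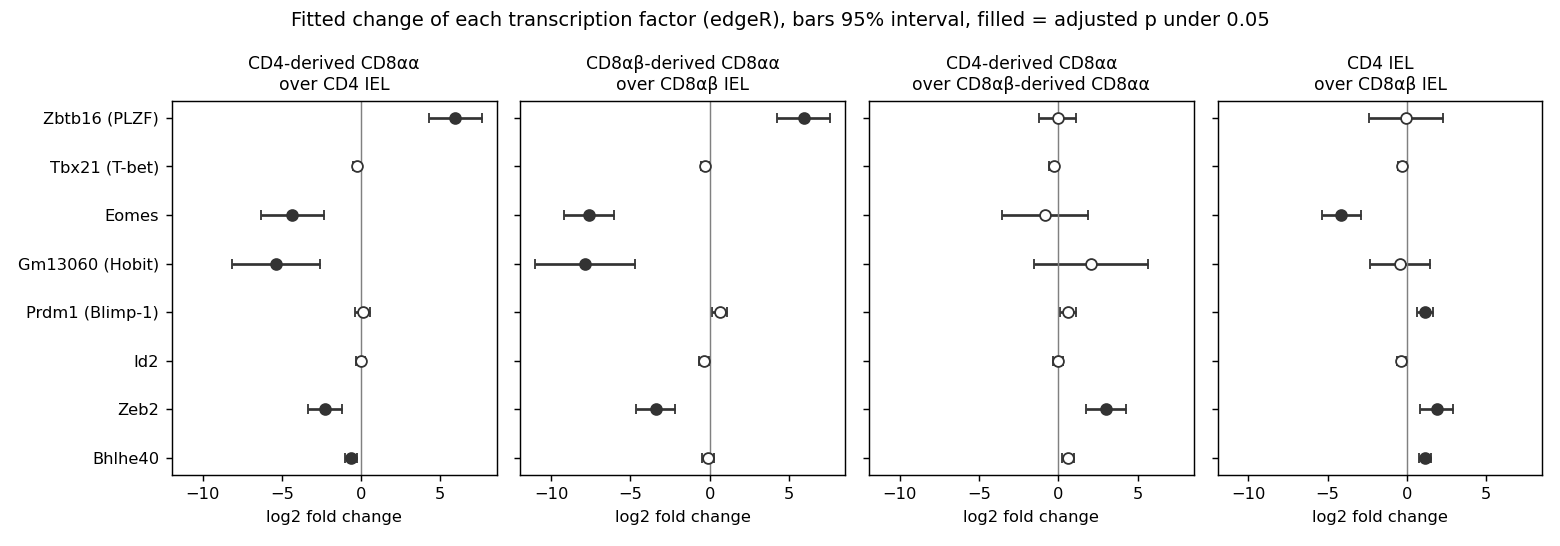
Fitted log2 fold change of each factor (horizontal axis) in the 4 comparisons, with 95% intervals from edgeR and filled points at adjusted p under 0.05. Zbtb16 lies near 6 in both CD8αα comparisons, Eomes, Gm13060 and Zeb2 lie below 0 in both, and Zeb2 is the filled point between the CD8αα groups.

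Levels per kilobase of exon rank the factors within a group. In CD4-derived CD8αα, Id2 (190.1 ± 17.4 CPM per kb), Bhlhe40 (156 ± 22.5) and Tbx21 (136 ± 13.3) led, followed by Prdm1 (52.9 ± 9.67) and Zbtb16 (4.24 ± 0.772), as mean ± SD of 3 libraries. In CD4 IEL, Bhlhe40 led at 243 ± 6.60 CPM per kb, and Zbtb16 was the lowest at 0.0731 ± 0.0874 (SD, n = 3). In CD8αβ-derived CD8αα, Id2 led at 193 ± 17.9 CPM per kb and Zbtb16, at 4.37 ± 0.362, stood above Zeb2, at 0.0374 ± 0.0375 (SD, n = 3). In CD8αβ IEL, Id2 at 249 ± 35.3 and Tbx21 at 200.5 ± 7.63 CPM per kb led, and Eomes reached 13.7 ± 0.656 (SD, n = 3).

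Other genes of the same programmes were followed in 6 lists. The lists were chosen with earlier results of these data known, so the counts of genes called in them are a description. Beside them, 28.5% of all genes tested passed in CD4-derived CD8αα over CD4 IEL (15% higher and 13.5% lower). In CD8αβ-derived CD8αα over CD8αβ IEL it was 31.2% (16.1% higher and 15.1% lower). Among 18 genes that T-bet and Eomes regulate or work with, 17 were tested, and 7 rose and 7 fell in CD4-derived CD8αα over CD4 IEL, with a median log2 fold change of -0.30 against 0.02 over all genes. Over CD8αβ IEL, 6 rose in CD8αβ-derived CD8αα and 8 fell, with a median of -0.33 against 0.00. The largest falls were in the chains of the interleukin-18 receptor. Il18r1 had no read in CD4-derived CD8αα and 116, 87.9 and 63.6 CPM in CD4 IEL, at least 644-fold lower (edgeR, adjusted p = 8.61e-07). It averaged 0.129 ± 0.141 CPM in CD8αβ-derived CD8αα and 29.1 ± 14.9 in CD8αβ IEL (SD, n = 3 each, edgeR, adjusted p = 3.00e-06).

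Il18rap, the partner chain, averaged 9.56 ± 7.60 CPM in CD4-derived CD8αα and 328 ± 70.7 in CD4 IEL (SD, n = 3 each, edgeR, adjusted p = 8.34e-06). It averaged 0.650 ± 0.585 CPM in CD8αβ-derived CD8αα and 93.0 ± 38.1 in CD8αβ IEL (SD, n = 3 each, edgeR, adjusted p = 2.45e-06). Il12rb2, a chain of the interleukin-12 receptor that T-bet induces, averaged 739 ± 218 CPM in CD4 IEL, against 24.2 ± 6.80 in CD8αβ IEL (SD, n = 3 each, edgeR, adjusted p = 1.87e-07). Cx3cr1, a chemokine receptor of terminal effector cells, averaged 1.81 ± 1.62 CPM in CD4 IEL, against 24.8 ± 5.08 in CD8αβ IEL (SD, n = 3 each, edgeR, adjusted p = 0.0176). Its call was lost without CD4 IEL replicate 1 (adjusted p = 0.0506) and by DESeq2 (adjusted p = 0.126).

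Of 15 tissue residency genes, 7 rose and 8 fell in CD4-derived CD8αα over CD4 IEL, with a median log2 fold change of -0.56 against 0.02 over all genes. Over CD8αβ IEL, 7 rose and 5 fell in CD8αβ-derived CD8αα, with a median of 0.25 against 0.00. Cd244, a receptor of the SLAM family on NK and cytotoxic T cells, averaged 1256 ± 97.3 CPM in CD4-derived CD8αα and 144 ± 60.6 in CD4 IEL (SD, n = 3 each, edgeR, adjusted p = 2.59e-06). It averaged 1224 ± 79.1 CPM in CD8αβ-derived CD8αα and 158 ± 54.7 in CD8αβ IEL (SD, n = 3 each, edgeR, adjusted p = 3.24e-06). Cdh1, the adhesion molecule E-cadherin, averaged 277 ± 26 CPM in CD8αβ-derived CD8αα and 85.5 ± 21 in CD8αβ IEL (SD, n = 3 each, edgeR, adjusted p = 5.95e-05), and Epcam and Cdh17 of the epithelial markers were higher there too, while the median of that list was -0.18.

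Nr4a1, an early response gene of T cell receptor signalling, fell to 265 ± 12.7 CPM in CD4-derived CD8αα, against 2330.1 ± 216 in CD4 IEL (SD, n = 3 each, edgeR, adjusted p = 7.26e-09). Ahr, the aryl hydrocarbon receptor that maintains IEL, averaged 269 ± 48.3 CPM in CD4 IEL, against 47.1 ± 15.4 in CD8αβ IEL (SD, n = 3 each, edgeR, adjusted p = 5.69e-05). Hic1, a repressor needed by intestinal T cells, averaged 323 ± 41.1 CPM in CD4 IEL, against 103 ± 11.9 in CD8αβ IEL (SD, n = 3 each, edgeR, adjusted p = 3.17e-05).

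Most of the 12 genes of egress and recirculation, which Blimp-1 and Hobit repress or naive cells carry, fell with the CD8αα label. In CD4-derived CD8αα over CD4 IEL, 9 fell and 1, Cd27, rose, with a median log2 fold change of -2.69 against 0.02 over all genes. In CD8αβ-derived CD8αα over CD8αβ IEL, all 12 fell, with a median of -2.80 against 0.00, and 8 fell without the 4 libraries with Xist. Tcf7, which encodes TCF-1 of naive and memory cells, averaged 2.34 ± 2.03 CPM in CD4-derived CD8αα and 216 ± 34.9 in CD4 IEL (SD, n = 3 each, edgeR, adjusted p = 1.41e-06). It averaged 3.73 ± 0.492 CPM in CD8αβ-derived CD8αα and 143 ± 52.5 in CD8αβ IEL (SD, n = 3 each, edgeR, adjusted p = 3.75e-06).

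Ccr7, the lymph node homing receptor, was 99.1-fold lower in CD4-derived CD8αα than in CD4 IEL by the ratio of 2 to 222 reads (exact 95% counting interval 27.1 to 823, edgeR, adjusted p = 0.00158). S1pr1, the receptor that lets lymphocytes leave tissue, was 908-fold lower in CD8αβ-derived CD8αα than in CD8αβ IEL by the ratio of 2 to 1434 reads (exact 95% counting interval 251 to 7501, edgeR, adjusted p = 2.68e-07). Cd27, a costimulatory receptor of the tumour necrosis factor family, averaged 35.1 ± 8.48 CPM in CD4 IEL, against 297 ± 46.6 in CD8αβ IEL (SD, n = 3 each, edgeR, adjusted p = 1.69e-06). Il7r, the interleukin-7 receptor, averaged 484 ± 117 CPM in CD4 IEL, against 64.8 ± 17.7 in CD8αβ IEL (SD, n = 3 each, edgeR, adjusted p = 5.37e-05). Tcf7 and T cell markers such as Cd28 and Cd5 were low in the same libraries.

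Of 15 genes associated with PLZF in innate-like lymphocytes, 6 rose and 8 fell in CD4-derived CD8αα over CD4 IEL, with a median log2 fold change of -0.56 against 0.02. Over CD8αβ IEL, 5 rose and 6 fell in CD8αβ-derived CD8αα, with a median of 0.30 against 0.00. Klrb1c, Fcer1g and Tyrobp of this list are also among the NK and innate lymphoid markers. Il23r, a chain of the interleukin-23 receptor, had no read in CD4-derived CD8αα and was at least 103-fold lower than in CD4 IEL (edgeR, adjusted p = 1.26e-04). Slamf6, a SLAM receptor that helps select innate-like T cells, averaged 0.153 ± 0.264 CPM in CD4-derived CD8αα and 43.4 ± 13.2 in CD4 IEL (SD, n = 3 each, edgeR, adjusted p = 5.78e-05).

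Icos, a costimulator of activated T cells, averaged 0.681 ± 0.198 CPM in CD8αβ-derived CD8αα and 191 ± 53.1 in CD8αβ IEL (SD, n = 3 each, edgeR, adjusted p = 2.92e-09). Il4, a cytokine that PLZF-expressing NKT cells release, had 2.06, 6.27 and 3.90 CPM in CD8αβ-derived CD8αα and no read in CD8αβ IEL, at least 30.3-fold higher (edgeR, adjusted p = 0.00203). Il23r was 111-fold higher in CD4 IEL than in CD8αβ IEL by the ratio of 345 to 3 reads (exact 95% counting interval 37.8 to 542, edgeR, adjusted p = 5.25e-04).

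Of 10 genes of the E protein and Id network, 8 were tested. In CD4-derived CD8αα over CD4 IEL, 2 rose and 3 fell, and in CD8αβ-derived CD8αα over CD8αβ IEL, 1 rose and 4 fell, with medians of -0.26 and -0.86. Bcl11b, a T cell identity factor, averaged 17.3 ± 2.00 CPM in CD8αβ-derived CD8αα and 218 ± 36 in CD8αβ IEL (SD, n = 3 each, edgeR, adjusted p = 9.33e-07). Cxcr5, a follicle homing receptor, was at least 28.6-fold lower in CD4-derived CD8αα than in CD4 IEL and 62.4-fold lower in CD8αβ-derived CD8αα than in CD8αβ IEL (3 to 148 reads, exact 95% counting interval 21 to 306), with adjusted p = 0.00184 by edgeR in each.

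Rag1, a recombinase gene that E proteins switch on in precursors, had 5.12, 1.60 and 1.87 CPM in CD4-derived CD8αα and 2 reads in CD4 IEL, a ratio of 31.4 (exact 95% counting interval 8.29 to 265, edgeR, adjusted p = 0.0335). That call was lost without any single CD4-derived CD8αα library (adjusted p = 0.0564 to 0.124), without CD4 IEL replicate 1 or 2 and with no filter on low counts. Id3, the sister of Id2 kept by memory and naive cells, averaged 4.57 ± 1.12 CPM in CD4 IEL, against 69.9 ± 21.5 in CD8αβ IEL (SD, n = 3 each, edgeR, adjusted p = 3.21e-04). Tcf12, an E protein, averaged 104 ± 26.9 CPM in CD4 IEL, against 46.6 ± 7.60 in CD8αβ IEL (SD, n = 3 each, edgeR, adjusted p = 0.00128).

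Of 11 factors that oppose or work with the 8, 10 were tested. In CD4-derived CD8αα over CD4 IEL, 2 rose and 4 fell, and in CD8αβ-derived CD8αα over CD8αβ IEL, 1 rose and 5 fell, with medians of -0.75 and -0.30. Without the 4 libraries with Xist, 0 rose and 2 fell in each of these comparisons. Irf4, a factor induced by T cell receptor signals, averaged 12.4 ± 1.24 CPM in CD4-derived CD8αα and 263 ± 63.6 in CD4 IEL (SD, n = 3 each, edgeR, adjusted p = 2.97e-07). It averaged 16.1 ± 1.43 CPM in CD8αβ-derived CD8αα and 177 ± 75.4 in CD8αβ IEL (SD, n = 3 each, edgeR, adjusted p = 1.21e-06). Runx1 averaged 69.3 ± 6.31 CPM in CD4-derived CD8αα and 222 ± 37.1 in CD4 IEL (SD, n = 3 each, edgeR, adjusted p = 2.75e-04). Bach2, a repressor of effector genes that Blimp-1 opposes, was 55.1-fold lower in CD8αβ-derived CD8αα than in CD8αβ IEL by the ratio of 2 to 87 reads (exact 95% counting interval 14.8 to 462, edgeR, adjusted p = 0.0121), a call lost without the 4 libraries with Xist (adjusted p = 0.110).

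In CD4 IEL over CD8αβ IEL, 29.0% of all genes tested passed by edgeR (12.9% higher and 16% lower). The T-bet and Eomes list had 4 higher and 7 lower of 17 tested, the residency list 6 and 1 of 15, and the egress list 2 and 5 of 12. The PLZF list had 7 and 3 of 15, the E protein list 3 and 1 of 8 and the list of opposing or partner factors 2 and 1 of 10. Runx1 averaged 222 ± 37.1 CPM in CD4 IEL, against 47.7 ± 19.3 in CD8αβ IEL (SD, n = 3 each, edgeR, adjusted p = 1.09e-04). Ikzf2, which encodes Helios, averaged 72.1 ± 20.3 CPM in CD4 IEL, against 32.9 ± 13.7 in CD8αβ IEL (SD, n = 3 each, edgeR, adjusted p = 0.0124). That call was lost without CD4 IEL replicate 1 (adjusted p = 0.0550).

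Between CD4-derived CD8αα and CD8αβ-derived CD8αα, 4.33% of all genes tested passed by edgeR (1.87% higher and 2.46% lower). The T-bet and Eomes list had 2 higher and 2 lower of 17 tested, and the residency list 3 and 4 of 15. The egress list had 1 and 0 of 12, the PLZF list 2 and 0 of 15, and the other lists 0 of 8 and 0 of 10. Nr4a1 averaged 265 ± 12.7 CPM in CD4-derived CD8αα, against 913 ± 67.2 in CD8αβ-derived CD8αα (SD, n = 3 each, edgeR, adjusted p = 4.71e-05). Icos averaged 9.44 ± 2.64 CPM in CD4-derived CD8αα, against 0.681 ± 0.198 in CD8αβ-derived CD8αα (SD, n = 3 each, edgeR, adjusted p = 1.28e-04). The log2 fold changes of the other named genes were 3.87 for Il18rap (adjusted p = 0.00741), -2.76 for the chemokine Xcl1 (0.00757), 1.10 for the gut homing receptor Ccr9 (0.00553), 2.02 for Il7r (0.00693) and 2.17 for the NK receptor Klrk1 (0.0354), all adjusted by edgeR. Xcl1 lost its call without CD4-derived CD8αα replicate 1 (adjusted p = 0.0550), and Klrk1 lost it without any 1 of the 6 CD8αα libraries or CD4 IEL replicate 1 (adjusted p = 0.0509 to 0.152). No list gene passed in this comparison without the 4 libraries with Xist.

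**Figure D5:**
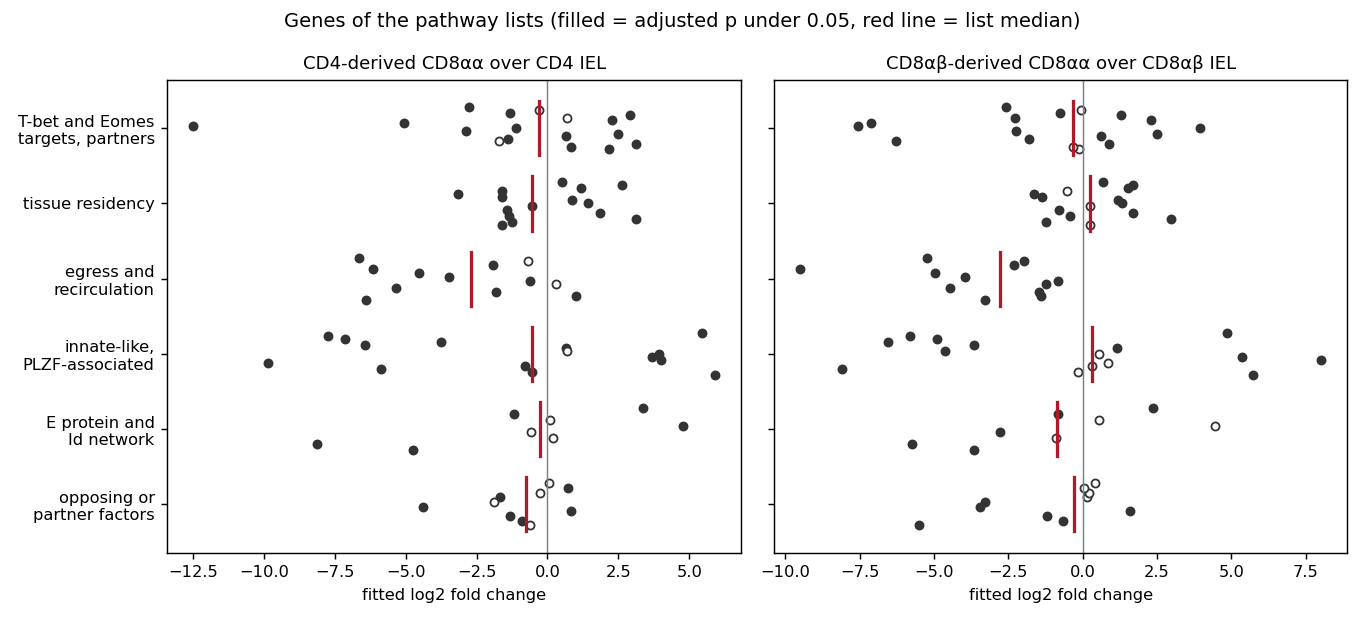
Fitted log2 fold change (horizontal axis) of every tested gene of the 6 lists (vertical axis) in the 2 CD8αα comparisons, filled at adjusted p under 0.05, with the list median as a red line. The egress and recirculation list has its median below 0 in both, at -2.69 and -2.80, with Cd27 the filled point above 0 in the CD4 progeny, and the other lists spread to both sides.

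The genes whose profile over the 12 libraries lay nearest to each factor were found among 8259 genes by the root mean square difference of centred log2 CPM. A prior count of 2 was added before the log, which narrows the differences of scarce genes such as Gm13060. These points share libraries and depth, and the distances are a description. Nearest to Zbtb16 were Cd300lb (0.55 log2 units), which had 54.5 ± 5.06 CPM in CD4-derived CD8αα, 1.63 ± 0.581 in CD4 IEL, 91.7 ± 15.6 in CD8αβ-derived CD8αα and 3.19 ± 2.67 in CD8αβ IEL (SD, n = 3 each), and Pde1c (0.69). Nearest to Eomes were Atp8b4 (0.73), at 53.0 ± 27.0 CPM in CD8αβ IEL (SD, n = 3) and at most 6.13 CPM in any other library, and Samd3 (0.91). Nearest to Zeb2 were H1f0 (0.60), at 26.6 ± 1.25 CPM in CD4-derived CD8αα, 128 ± 14.3 in CD4 IEL, 6.66 ± 3.53 in CD8αβ-derived CD8αα and 30.0 ± 5.24 in CD8αβ IEL (SD, n = 3 each), and Ptpn13 (0.76).

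Nearest to Gm13060 were H2-Q10 (0.63) and Cdc25b (0.65), and H2-Q10 belongs to a gene family whose reads may be shared between copies. Prdm1 lay nearest to Znf512b (0.12) and Dgat1 (0.16), and Bhlhe40 to Ero1l (0.13) and Impad1 (0.15). Tbx21 lay nearest to Dcaf12 and Katna1 (0.12 each), and Id2 to Ndufaf1 (0.09) and Drg1 (0.10), but both factors varied so little, with an SD of 0.23 and 0.21 log2 units over the libraries, that many genes are as near. Among the 8 factors themselves, Tbx21 and Id2 were the closest pair at 0.21, followed by Prdm1 and Bhlhe40 at 0.39, and Zbtb16 and Eomes were the farthest apart at 5.64.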

How the data were processed

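The authors deposited whole-number counts of reads for each gene in 12 libraries, unscaled. The submitters' processing notes name HISAT2 2.1.0 and mm10; how reads were counted, by strand or with multiple matches, is not given in the sources used here. Of rows with the same symbol only that with most reads was used, so 66 of 25965 rows (0.0202% of reads) were dropped. Coordinates are those of the table, and exon lengths come from GENCODE M21.

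Genes were kept by filterByExpr (minimum count 10, minimum total 15), scaled by TMM and tested with edgeR 4.0.16 in R 4.3.3 (quasi-likelihood test, two-sided, all 12 libraries, 1 mean per group, no replicate block), with Benjamini-Hochberg adjustment over 12622 genes and a call at adjusted p under 0.05. Levels are CPM of the TMM-scaled total. For a gene with 0 reads in a group the fold is a bound against 3 counts over the group, and for 1 to 3 reads the ratio has an exact 95% counting interval, and intervals and floors cover counting error only. Pairs of libraries within a group differed beyond sampling noise (chi-square per gene 11.4 to 60.2), so none was a copy of another. That check cannot tell technical from biological replicates, and each library was counted as a replicate.

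The 8 factors and the gene lists were chosen with earlier results of these data known. All 8 are named, with Cd4, Cd8a and Cd8b1 as the check of the labels, the 2 genes of at least 10 CPM nearest to each factor, and from each pathway list the 2 called genes with the largest change in each main comparison. Fcer1g, Tyrobp, Ncr1, Klra8, Klra4, Klra1, Il1rl1, Cd3e, Cd3g, Lck, Cd28, Cd5, Xbp1, Itgam, Fcgr3, Cst3, Epcam, Cdh17, Klrb1c and Xist, from the marker lists, and Zeb2os and 0610040F04Rik were named after their values were seen. Alternatives were other scalings, no filter, DESeq2 1.42.0, the 2 groups alone, the replicate number as a block, each library left out and the 4 libraries with Xist left out. The pathway lists without those 4 libraries, the alternatives for list genes and the ratios with 1 library left out were added after the data were seen. The test was tried on simulated counts with known changes. Receptor constant region genes and 1 gene that the naming rule takes from the pathway lists are not reported here.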

Additional observations from a re-analysis of the deposited data

Results flagged for a closer look

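Of the genes named from the pathway lists, 8 changed with the CD8αα label by different amounts in the 2 progenies, by the interaction test of edgeR over all genes. None of the 8 transcription factors passed that test, which does not show that their changes were equal. Over all genes tested, 2.56% passed this interaction test. The list genes were named for the largest changes in the comparisons that make up the interaction, so their count is a description. In each case the interaction is the log2 fold change in CD4-derived CD8αα over CD4 IEL minus that in CD8αβ-derived CD8αα over CD8αβ IEL. Il12rb2 had an interaction of -5.06 (adjusted p = 2.81e-06), as it fell by 1.11 in the CD4 progeny and rose by 3.95 in the CD8αβ progeny. Cd27 had 2.40 (adjusted p = 4.24e-04), with changes of 1.01 and -1.39. Klrk1 had 5.32 (adjusted p = 0.00152), with changes of 0.69, which did not pass the test, and -4.63. Nr4a1 had -1.52 (adjusted p = 6.31e-04), as it fell by 3.14 and fell by 1.62. Il23r had -10.70 (adjusted p = 0.0108), a fitted value that depends on the prior count because CD4-derived CD8αα held no read. Icos had 2.20 (adjusted p = 0.0134), as it fell by 5.87 and fell by 8.08. Ahr had -1.82 (adjusted p = 0.0172) and Runx1 had -1.83 (adjusted p = 0.0188), with changes of -1.59 and -1.68 in the CD4 progeny and of 0.24 and 0.15 in the CD8αβ progeny, which did not pass. With 1 library left out at a time, Il23r (adjusted p = 0.0623), Runx1 (0.0530 to 0.0626), Icos (0.0533) and Ahr (0.0538 to 0.0551) each lost the call in at least 1 case. Those libraries were CD8αβ-derived CD8αα replicate 2 for Il23r and replicate 3 for Icos, CD4-derived CD8αα replicates 2 and 3 for Ahr, and these and CD8αβ-derived CD8αα replicate 3 for Runx1. Without the 4 libraries with Xist, the Il12rb2 interaction kept its call, and the other 7 lost it with adjusted p of 0.106 to 0.555.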

How the results depend on the processing

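The 19 settings gave 1051 fitted values of the 8 factors and 264 counts. Lost calls of the 8 factors and of the named list genes are given beside the results above, and the cause of these changes was not tested. Without the 4 libraries with Xist, the genes called were 1280 in CD4-derived CD8αα over CD4 IEL (3597 with them), 1421 in CD8αβ-derived CD8αα over CD8αβ IEL (3939), 1 between the CD8αα groups (547), 1657 in CD4-derived CD8αα over CD8αβ IEL (5008), 2474 in CD8αβ-derived CD8αα over CD4 IEL (4887) and 13 in the interaction (323), and the fit holds fewer samples. Factors called were then 3 in CD4-derived CD8αα over CD4 IEL (5 with them), 0 between the CD8αα groups and 2 in CD4-derived CD8αα over CD8αβ IEL. Between the CD8αα groups, DESeq2 called 1032 genes and the 2 groups alone 959, and leaving out 1 library gave 166 to 714. The factors called there were 2 with library totals, with no filter and by DESeq2, 3 with the 2 groups alone, and 0 to 3 with 1 library left out. The interaction had 806 genes by DESeq2 and 147 to 368 with 1 library left out.

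Changes of sign all concerned values that did not pass the test. Without the 4 libraries with Xist they were -0.22 for Prdm1 and 0.09 for Id2 in CD4-derived CD8αα over CD4 IEL, 4.91 for Eomes and 0.04 for Id2 between the CD8αα groups, -0.04 for Tbx21 and 0.05 for Id2 in CD8αβ-derived CD8αα over CD4 IEL, and -0.36 for the Zbtb16 interaction. Library totals gave 0.05 for Zbtb16 and 0.06 for Id2 between the CD8αα groups, 0.04 for Zbtb16 in CD4 IEL over CD8αβ IEL, and for Tbx21 -0.14 in CD8αβ-derived CD8αα over CD4 IEL and -0.02 in the interaction. They moved the median of all genes to 0.13 in CD4 IEL over CD8αβ IEL and to -0.13 in CD8αβ-derived CD8αα over CD4 IEL. With no filter, Id2 was 0.01 between the CD8αα groups and Tbx21 -0.02 in CD8αβ-derived CD8αα over CD4 IEL, where median-ratio factors and DESeq2 gave Tbx21 0.00. With 1 library left out, the ranges were 0.00 to 0.26 for Prdm1 and -0.12 to 0.02 for Id2 in CD4-derived CD8αα over CD4 IEL, and -0.27 to 0.13 for Bhlhe40 in CD8αβ-derived CD8αα over CD8αβ IEL. For CD8αα cells of the 2 origins they were -0.16 to 0.07 for Zbtb16, -4.23 to 3.32 for Eomes and -0.10 to 0.07 for Id2. In CD4 IEL over CD8αβ IEL they were -1.49 to 2.29 for Zbtb16 and -1.23 to 0.06 for Gm13060. In CD8αβ-derived CD8αα over CD4 IEL they were -0.12 to 0.07 for Tbx21 and -0.13 to 0.07 for Id2. In the interaction they were -2.30 to 1.45 for Zbtb16, -0.07 to 0.11 for Tbx21 and -0.08 to 7.47 for Eomes.

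The replicate numbers were not taken to pair the samples, as same-numbered libraries correlated by -0.0156 to 0.0602 in the CD4 progeny and 0.0978 to 0.326 in the CD8αβ progeny, where every library correlated best with its own number. In replicates 1, 2 and 3, Xist had 15.1, 36.4 and 0 CPM in CD4 IEL and 6.93, 0.528 and 13.0 CPM in CD8αβ IEL. In both progenies it was higher in the numbers whose CD8αα library had Xist. Whether same-numbered libraries share hosts was not tested, so a pairing remains possible. With the number as a replicate block, the genes called were 3674, 3941, 663 and 3814 in the 4 main comparisons and the factors 5, 6, 1 and 5. The block added Prdm1 (adjusted p = 0.0410, edgeR) and Id2 (0.0165) in CD8αβ-derived CD8αα over CD8αβ IEL, and Id2 (0.0189) in CD4 IEL over CD8αβ IEL. Values near the threshold passed in some of the 19 settings: in CD8αβ-derived CD8αα over CD8αβ IEL, Id2 in 9, Prdm1 in 4 and Tbx21 in 1, in CD4-derived CD8αα over CD4 IEL, Tbx21 in 1, between the CD8αα groups, Bhlhe40 in 6 and Prdm1 in 2, in CD4 IEL over CD8αβ IEL, Id2 in 3, and in CD8αβ-derived CD8αα over CD4 IEL, Prdm1 in 3. The ratios given above that rest on 1 to 3 reads stayed inside their counting intervals with 1 library left out, where the lower group kept a read. Gm13060 could not be tested in CD4-derived CD8αα over CD4 IEL with the 2 groups alone, as it failed the filter. At this depth, levels under 0.271 to 0.534 CPM cannot be told from 0.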
